A study of Mus musculus with 4 samples.

Results

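Heat shock proteins are chaperones that bind unfolded or immature proteins in the cytosol, and cochaperones are the partners that deliver clients to them or time their ATP cycles. The 37 genes described here are the cytosolic HSP90, HSP70 and HSP110 chaperones, small heat shock proteins, heat shock factors and the cochaperones of HSP90 and HSP70, out of 50600 gene rows measured. They were chosen by name, but were selected on earlier results in which heat shock genes differed between these same 4 libraries. Their spread between libraries is therefore given as a description, and calls of a test fitted over all genes are printed for them without being read as support. Of the 37, the genes Hspa9, Hspd1, Hspe1 and Trap1 encode mitochondrial rather than cytosolic chaperones, and they are kept as a group of their own.

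The libraries were made from primary mouse cells (strain C57BL/6NJ) that carry the label T-helper 17, and are numbered as biological replicates 1 to 4 of 1 group. The assay is called total RNA-seq, but the linked library protocol is for poly(A)+ RNA. No control group, treatment, age or sex is given, and the linked protocols describe CD4 T-cell differentiation and library construction. Each library has its own biosample record, but all 4 share 1 donor record. What the spread between them holds, between animals or technical, is not given. An hour tag of 0 appears in the alignment names, without further explanation.

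All 7 T-cell markers exceeded 1 TPM (transcript level scaled by gene length and by the library total) in every library, with a summed level of 7644 to 7883 TPM. The 6 Th17 markers summed to 14.1 to 25.2 TPM, with 3 of 6 at 1 TPM in every library, whereas the 4 naive T-cell markers summed to 4383 to 5358 TPM. The Th17 label is therefore used only as a label. Markers of CD8 T cells, B cells, myeloid cells, NK cells, erythroid cells and stroma or epithelium summed to at most 3.71 TPM per list and library. Counted fragments totalled 29041979, 35018552, 48808978 and 45490373 in replicates 1 to 4. Xist was at 224 and 215 TPM in replicates 1 and 2, against 0.294 and 0.445 in replicates 3 and 4. Ddx3y, on the Y chromosome, was at 0.439 and 0.658 TPM in replicates 1 and 2, against 97.2 and 139 in replicates 3 and 4. Replicates 1 and 2 thus differ in sex-linked transcripts from replicates 3 and 4, and the shared donor record cannot stand for a single animal. Because these are bulk samples, fewer cells of a type and less RNA per cell cannot be told apart.

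The stress induction of many cytosolic chaperone genes is controlled by heat shock factor 1. This factor is held inactive by chaperones in unstressed cells and is released when unfolded proteins draw the chaperones away. The factor binds heat shock elements, runs of the unit GAA and its inverse TTC spaced by 2 bases. T cells need HSP90 and its cochaperones to fold kinases such as Lck and steroid receptors such as the glucocorticoid receptor.

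Promoter windows were examined first, since their letters were not used in the choice of genes. The genes were chosen by name as heat shock genes and their partners, however. The share that holds a heat shock element is therefore not independent of the choice. RefSeq windows on GRCm38.p6, the assembly that mm10 names, run from 250 bases before to 50 bases after each transcript start, and 30 of the 37 genes had at least 1. Hsf1, Hsp90aa1, Hsp90ab1, Hspa8, Hspa9, Ppid and St13 had none. A run of 3 alternating units (GAANNTTCNNGAA or TTCNNGAANNTTC, each the reverse complement of the other, with overlapping matches joined) was present without a mismatch for 4 of the 30 genes, which is 13.3%. Of all 27025 genes with a window, 0.662% held it. The 4 genes were Hsph1, Chordc1, Hspd1 and Hspe1. A shorter run of 2 units (GAANNTTC or TTCNNGAA) was present for 12 of 30 genes, 40.0% against 17.0% of all genes. With 1 mismatch allowed in the 9 fixed letters of the longer run, 12 of 30 genes held the run, 40.0% against 8.15% of all genes. The matches are descriptions of letters, and whether a factor binds them was not tested.

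The stretches below hold the matches of the 4 genes and of the Hspa1a and Hspa1b pair, because these carry the sequence side of the account. They read 5′ to 3′ on each gene's strand, and capitals mark the matched run, without a mismatch for the first 4 and with 1 mismatch allowed for Hspa1a and Hspa1b. Positions count from the transcript start, whose first base is 1.
Hspd1, chr1:55088032-55088092, minus strand: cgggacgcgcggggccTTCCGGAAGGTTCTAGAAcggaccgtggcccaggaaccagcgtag
Hspe1, chr1:55087988-55088108, plus strand: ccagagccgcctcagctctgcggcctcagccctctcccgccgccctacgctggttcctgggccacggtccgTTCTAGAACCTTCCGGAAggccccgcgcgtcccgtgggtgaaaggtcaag
Chordc1, chr9:18292167-18292290, plus strand: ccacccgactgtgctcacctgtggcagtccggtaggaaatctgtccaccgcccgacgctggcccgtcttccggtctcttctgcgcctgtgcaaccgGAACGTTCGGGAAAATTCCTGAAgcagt
Hsph1, chr5:149636286-149636415, minus strand: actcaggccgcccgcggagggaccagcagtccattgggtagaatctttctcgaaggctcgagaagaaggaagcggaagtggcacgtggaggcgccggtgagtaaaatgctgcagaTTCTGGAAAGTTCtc
Hspa1a, chr17:34972157-34972336, minus strand: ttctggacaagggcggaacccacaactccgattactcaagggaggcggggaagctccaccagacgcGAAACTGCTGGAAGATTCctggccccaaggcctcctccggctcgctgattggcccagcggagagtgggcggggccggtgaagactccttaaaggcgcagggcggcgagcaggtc
Hspa1b, chr17:34959239-34959418, minus strand: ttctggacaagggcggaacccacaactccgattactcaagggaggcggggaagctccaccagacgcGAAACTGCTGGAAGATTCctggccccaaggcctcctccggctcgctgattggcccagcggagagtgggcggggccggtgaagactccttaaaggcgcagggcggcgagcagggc

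Hspd1 and Hspe1 are divergent neighbours. Hspd1 has 2 transcript starts, and the window of the downstream start shares 285 bases with that of Hspe1, while the window of the other start shares 4. The match lies in the first of these, so the run printed for each is a single element read from opposite strands. It lay at -144 to -127 from that Hspd1 start and at -89 to -72 from the Hspe1 start. The Chordc1 run crossed the transcript start, from -4 to 19, and the Hsph1 run without a mismatch lay just after it, from 16 to 28, counted from the downstream of its 2 transcript starts. The Hspa1a and Hspa1b windows were identical at 296 of 300 bases, or 98.7%. The 4 genes with a run free of mismatches therefore stand for 3 separate loci.

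Chaperone genes were abundant in all 4 libraries. At least 1 TPM was reached in every library by 35 of the 37, and the median of their mean levels was 105 TPM against 25.0 TPM for the 12464 genes that passed the filter on low counts. Together the 37 genes held 0.506%, 0.619%, 0.565% and 0.936% of all TPM in replicates 1 to 4. Hsp90ab1 and Hspa8 alone made up 42.7% to 49.7% of that sum.

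The order of levels was steep at the top and shallow in the middle. Hsp90ab1 (mean 2082 TPM), Hspa8 (934 TPM) and Ahsa1 (270 TPM) were the highest, each above the next in this series in 4 of 4 libraries, whereas Ahsa1 was above Stip1 (248 TPM) in 3 of 4. Of the 36 neighbours in the order, 9 had ranges over libraries that did not overlap. The ranges of the remaining neighbours overlapped. Within libraries, 10 of the 36 neighbours kept the same order in all 4, among them Cdc37 over Hsbp1, whose ranges overlapped. For the others the order changed between libraries. The order also rests on the length correction. Ahsa1 had 16880 counts in all over 1347 exon bases, whereas Cdc37, with a mean of 105 TPM, had 39036 over 8194. Genes with close copies elsewhere in the genome can be undercounted, since fragments that fit several places were left out.

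**Figure D1:**
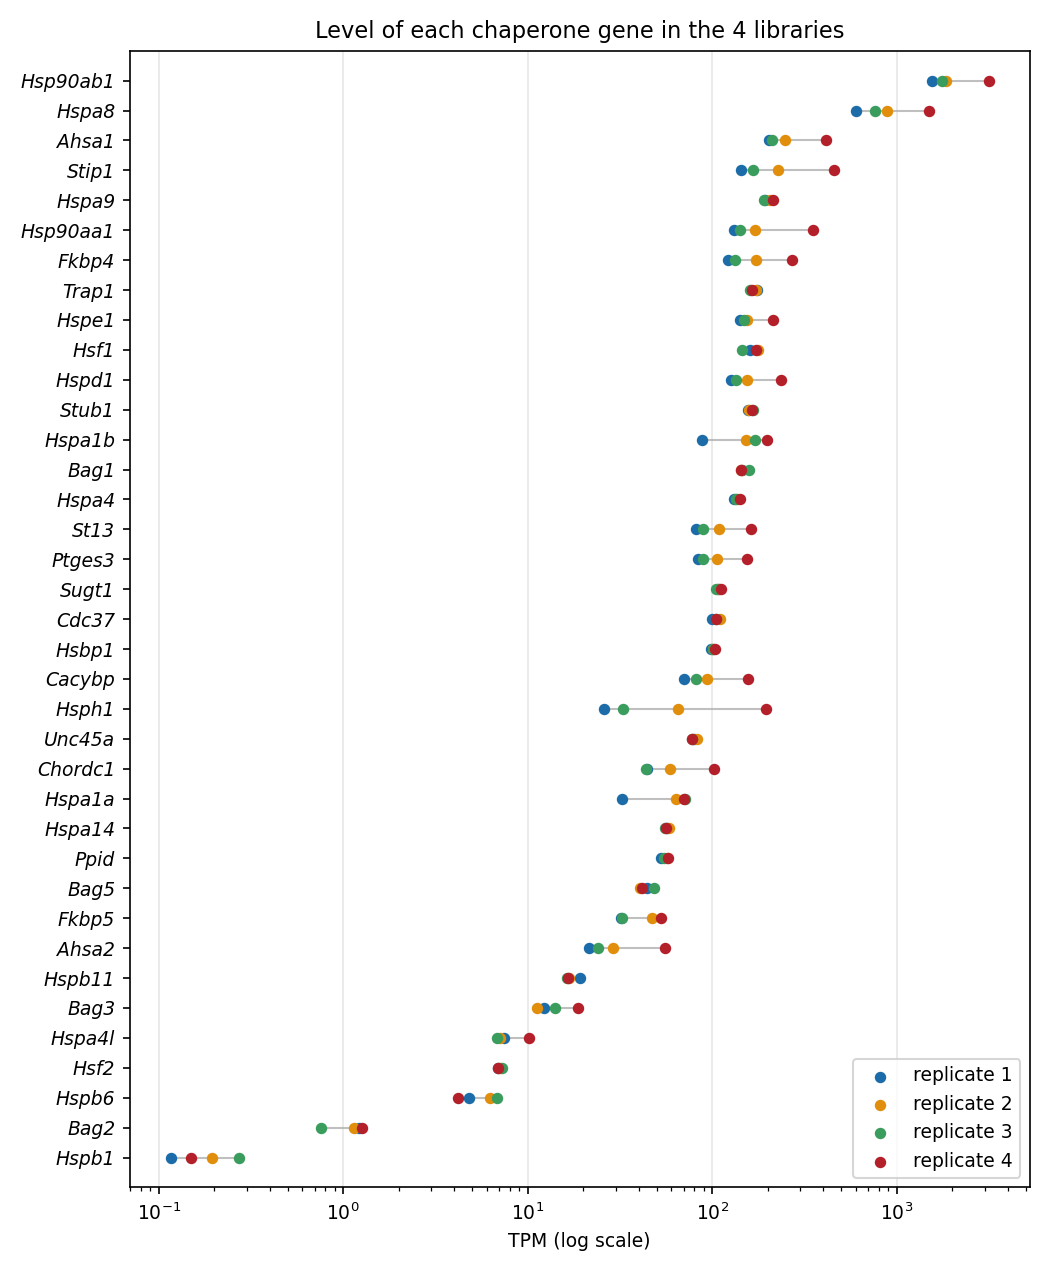
Level of each of the 37 chaperone and cochaperone genes (TPM, log scale) in the 4 libraries, 1 point per library and a grey bar from lowest to highest, ordered by mean. Hsp90ab1 lies highest at 1557 to 3162 TPM, Hspb1 lowest at 0.116 to 0.273 TPM, and the widest bar belongs to Hsph1.

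The HSP90 genes were both highest in replicate 4 and lowest in replicate 1. Hsp90ab1, the constitutive cytosolic HSP90 beta (ENSMUSG00000023944, minus strand of chromosome 17, 45567775 to 45573271), had levels of 1557, 1846, 1762 and 3162 TPM in replicates 1 to 4, a highest over lowest ratio of 2.03. Hsp90aa1, the stress-inducible HSP90 alpha (ENSMUSG00000021270, minus strand of chromosome 12, 110690605 to 110702728), had levels of 131, 170, 142 and 351 TPM, a ratio of 2.69. The beta gene exceeded the alpha gene in all 4 libraries, by 11.9, 10.9, 12.4 and 9.01 times in TPM. The ratio was thus smallest in the library where both were highest. Of the Hsp90aa1 transcript words of 100 bases, 38.0% also occurred at another locus, against 0 for Hsp90ab1, so the alpha gene is the more open to undercounting.

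The cytosolic HSP70 genes did not all share that pattern. Hspa8, the constitutive HSC70 that folds new proteins and uncoats clathrin vesicles (ENSMUSG00000015656, chromosome 9, 40800984 to 40810087, plus strand), was at 601, 883, 761 and 1490 TPM. Hspa1a was at 32.6, 63.3, 71.2 and 70.6 TPM and its neighbour Hspa1b at 87.7, 153, 170 and 199 TPM. These encode the classical stress-inducible HSP70, on chromosome 17 at 34969190 to 34972156 and 34956436 to 34959238, both on the minus strand. In both, replicate 1 was low and the other libraries lay nearer each other, with Hspa1a no higher in replicate 4 than in replicate 3. Words of 100 bases shared with another locus made up 48.6% of Hspa1a and 49.9% of Hspa1b, so both can be undercounted and their levels are uncertain. Hspa8 had 28.5% of such words shared, and exceeded Hspa1a by 10.7 to 21.1 times in TPM.

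Hsph1 had the widest spread of the 37 genes. It encodes HSP110 (HSP105), which exchanges nucleotide on HSP70 and helps it to dissolve aggregates. Its levels of 26.0, 65.4, 33.0 and 195 TPM gave a highest over lowest ratio of 7.50. Counting error was small beside this, with 95% exact Poisson intervals of 24.8 to 27.3 TPM in replicate 1 and 192 to 198 TPM in replicate 4. Such intervals cover counting error only. Without replicate 4 its ratio was 2.51.

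The related nucleotide exchange factor Hspa4 was nearly flat, at 132, 136, 134 and 142 TPM. The Hspa4 to Hsph1 ratio was therefore 5.07, 2.08, 4.06 and 0.729, with Hspa4 the higher in 3 of 4 libraries and Hsph1 the higher in replicate 4. Hspa4l, another member of that family, was at 7.45, 7.10, 6.82 and 10.2 TPM, 14.0 to 19.7 times below Hspa4. Hspa14, a ribosome-associated HSP70 relative, ranged only from 55.3 to 58.6 TPM.

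Mitochondrial chaperones divided into 2 behaviours. Hspd1 (HSP60) was at 127, 155, 134 and 237 TPM and its lid partner Hspe1 (HSP10) at 141, 154, 149 and 214 TPM, in the same order of libraries as the HSP90 genes. These are the divergent neighbours that share the element printed above, and their log2 ratio was -0.03 ± 0.14 (SD, n = 4), above 0 in 2 libraries and below in 2. Hspa9 (mortalin, the mitochondrial HSP70) ranged from 191 to 215 TPM and Trap1 (mitochondrial HSP90) from 160 to 174 TPM, both nearly flat.

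Small heat shock proteins were scarce. Hspb1 (HSP27 in humans), which holds unfolded proteins for refolding, had 1, 2, 4 and 2 counts. With 0.116 to 0.273 TPM it was the single member not tested for spread. Words shared with a pseudogene made up 44.0% of its transcript. Hspb6 was at 4.80, 6.22, 6.85 and 4.21 TPM, lowest in replicate 4. Hspb11 (IFT25), an intraflagellar transport subunit named for its fold, was at 19.2, 16.8, 16.4 and 16.5 TPM.

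In the heat shock factor group, Hsf2 and Hsbp1 were nearly flat, with highest over lowest ratios of 1.06 and 1.05. The ratio was 1.23 for Hsf1, against a median of 1.19 for all genes past the filter. Hsf1, which encodes the main factor, was at 161, 178, 145 and 173 TPM, and its order did not follow that of the HSP90 genes. Hsf2, a related factor that can pair with it, was at 6.89, 7.09, 7.29 and 6.94 TPM, so Hsf1 exceeded it by 19.9 to 25.1 times in TPM. Part of this ratio comes from the length correction, since the exon length was 2018 bases for Hsf1 and 9606 for Hsf2. Their counts in replicate 1 were 2711 and 551. Hsbp1, which encodes a small binding protein of the factor, ranged from 98.4 to 103 TPM. The level of an mRNA does not give the activity of this factor, which is set largely on the protein.

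The 12 HSP90 cochaperones included 6 with a highest over lowest ratio of 2 or more and others that were flat. Stip1 (HOP), which bridges HSP70 and HSP90 to pass clients on (ENSMUSG00000024966, minus strand of chromosome 19, 7020696 to 7040026), had levels of 143, 227, 166 and 457 TPM, a ratio of 3.20. The ATPase activators Ahsa1 and Ahsa2 were at 204, 249, 211 and 414 TPM and at 21.6, 29.0, 24.1 and 55.5 TPM. Chordc1, an HSP90 partner with a run of units at its start, was at 44.6, 58.8, 43.9 and 102 TPM. In each of these 4 genes replicate 4 lay far above the others and replicate 2 came second.

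Other partners were also highest in replicate 4. The immunophilin gene Fkbp4, which joins HSP90 to steroid receptors, was at 122, 172, 133 and 272 TPM. Cacybp, which encodes the calcyclin-binding protein, was at 70.4, 94.0, 81.9 and 156 TPM. Ptges3 (p23), which stabilises the closed HSP90 state, was at 83.9, 106, 88.7 and 155 TPM. Its transcript shared 17.3% of its words of 100 bases with another locus, so it can be undercounted. Fkbp5, known as a glucocorticoid-induced immunophilin, was at 32.0, 47.2, 32.6 and 52.9 TPM. In Fkbp5 replicates 2 and 4 stood near each other, unlike in Fkbp4, and the Fkbp4 to Fkbp5 ratio was 3.81, 3.65, 4.10 and 5.14.

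Other HSP90 partners were flat. Cdc37, which brings kinases to HSP90, ranged from 99.5 to 110 TPM. Unc45a, a myosin and HSP90 partner, ranged from 77.6 to 83.1 TPM. Sugt1 (SGT1), an adaptor for immune receptors, ranged from 105 to 111 TPM, and the cyclophilin gene Ppid (CYP40) from 52.6 to 57.4 TPM. Each of these 4 had a highest over lowest ratio of 1.10 or less.

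Of the 6 HSP70 cochaperones, 3 had a highest over lowest ratio of 1.5 or more (St13, Bag2 and Bag3), with a median ratio of 1.43 over the 6. St13 (HIP), which slows release of clients from HSP70, was at 82.1, 109, 89.7 and 162 TPM. Bag3, an exchange factor tied to selective autophagy, was at 12.3, 11.3, 14.1 and 18.8 TPM. Bag2 was near the lower limit at 1.22, 1.15, 0.759 and 1.26 TPM from 31 to 50 counts, and its 95% exact Poisson intervals overlapped across all 4 libraries.

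The abundant exchange factor Bag1 was at 145, 144, 159 and 143 TPM, with replicate 3 the highest. Bag5 ranged from 40.6 to 48.2 TPM, also highest in replicate 3. Stub1 (CHIP), the ubiquitin ligase that sends HSP70 clients to the proteasome, ranged from 157 to 166 TPM. Stip1 exceeded St13 by 1.74, 2.08, 1.85 and 2.82 times.

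**Figure D2:**
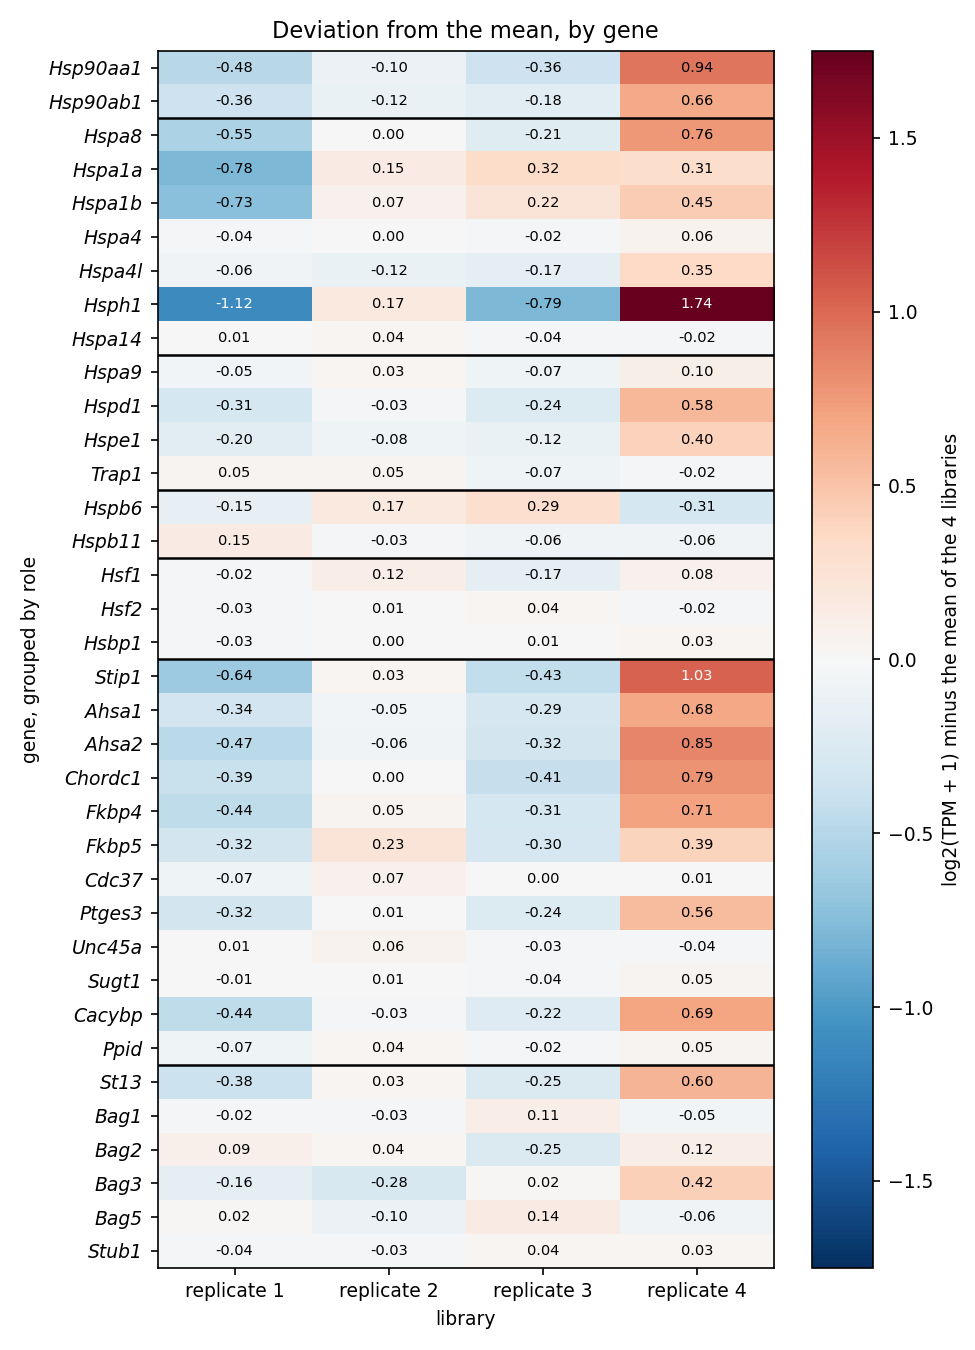
Deviation of each library from the 4-library mean on the log2(TPM + 1) scale for the 36 genes past the filter on low counts, grouped by role with black lines between groups (from the top: HSP90, HSP70 and HSP110, mitochondrial, small, heat shock factors, HSP90 cochaperones, HSP70 cochaperones). The replicate 4 column is the highest for 24 genes, with Hsph1 at 1.74 and Stip1 at 1.03, and near 0 for Hspa4, Hspa14 and Cdc37.

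Taking the 36 genes past the filter together, the mean log2(TPM + 1) deviation was -0.24, 0.01, -0.12 and 0.36 in replicates 1 to 4 (SD 0.26 over libraries). Over all 12464 genes tested the corresponding means were 0.03, 0.02, -0.02 and -0.03. Replicate 4 was the highest library for 24 of the 36 genes, against 23.3% of all genes tested, and replicate 1 the lowest for 22 of 36, against 18.7%. The full order of replicates 1, 3, 2 and 4 from low to high was shown by 16 of 36 genes, against 6.39% of all genes. These counts describe the values on which the genes were selected, and nothing further is read from them.

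The genes fell into a variable and a steady set. A highest over lowest TPM ratio of 1.5 or more was found for 20 of 36 genes, against 19.1% of all genes tested. A ratio of 2 or more was found for 12 of 36, against 6.25%. Among genes with a mean of at least 5 CPM (counts scaled to the library total), where counting noise is smaller, it was 1.5 or more for 18 of 34 members and for 4.69% of all such genes. At the other end, 14 of 36 members had a ratio under 1.2, and 51.3% of all genes did. The median ratio was 1.64 for the members and 1.19 for all genes tested.

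Of the 20 genes with a ratio of 1.5 or more, 18 were highest in replicate 4 and 14 followed the order 1, 3, 2, 4. Hspa1a and Hspb6 were the 2 highest in replicate 3. The counts of 18 and 14 are partly set by the filter on the ratio, which most of these genes passed through a high replicate 4. The like shares among all genes with such a ratio were not computed. Without replicate 4, 5 of 36 genes had a ratio of 1.5 or more (Bag2, Hspa1a, Hspa1b, Hsph1 and Stip1), against 12.6% of all genes, so the count of 20 rested largely on that library. On the log2 scale, the ratio without replicate 4 was 0.38 in place of 1.43 for Hsp90aa1, 0.25 in place of 1.02 for Hsp90ab1, 0.55 in place of 1.31 for Hspa8 and 0.67 in place of 1.68 for Stip1. The ratios of Ahsa1, Ahsa2, Chordc1, Fkbp4, Cacybp, Ptges3, St13, Hspd1 and Hspe1 were then 0.13 to 0.50. Without replicate 1, those of Hspa1a and Hspa1b were 0.17 and 0.38 in place of 1.13 and 1.18.

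A dispersion test built on edgeR's quasi-likelihood fit over all genes called 0.193% of them more variable than the trend for their abundance. The members called were 11 of 36, and all 11 were highest in replicate 4. Since the members were selected on their differences between these same libraries, these calls are a description and support nothing. They were Hsph1, Stip1, Hsp90aa1, Hsp90ab1, Hspa8, Hspa1b, Ahsa1, Ahsa2, Chordc1, Fkbp4 and Cacybp. Without replicate 2, 3 or 4 the same test called 6, 3 and 7 members, and a fit that was not robust called 2 (Hsph1 and Stip1).

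Values within the pairs of libraries that differ in Xist and Y-linked transcripts were as follows. Within the libraries with Xist, 29 of 36 genes were higher in replicate 2 than in replicate 1, against 48.8% of all genes. Within those with Y-linked transcripts, 29 of 36 were higher in replicate 4 than in replicate 3, against 49.8%. These counts come from the values on which the genes were selected. Mitochondrial transcripts took 1.99%, 1.81%, 2.20% and 2.01% of counts in replicates 1 to 4. The part of sex, depth or RNA quality in the spread was not tested.

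**Figure D3:**
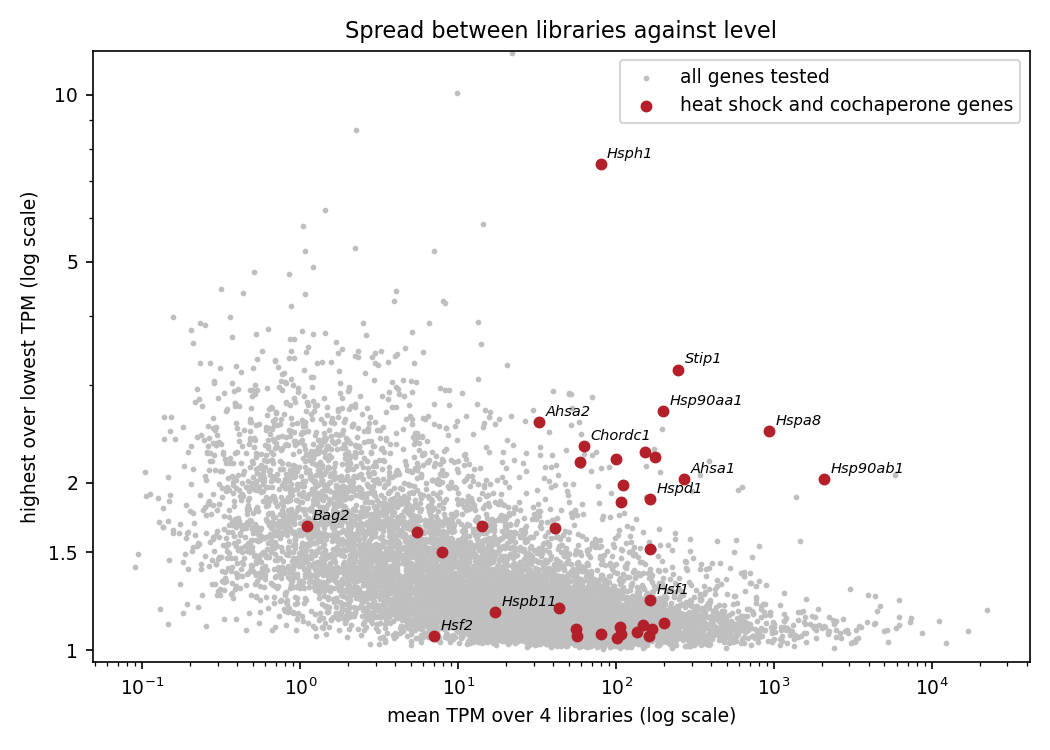
Highest over lowest TPM across the 4 libraries against mean TPM, both on log scales, for all 12464 genes tested (grey) and the 36 chaperone and cochaperone genes (red). Grey spread narrows with level while Hsph1, Stip1, Hspa8 and Hsp90ab1 stand above it, at 7.50, 3.20, 2.48 and 2.03, and 2 genes lie beyond the top of the axis at 12 or had 0 counts in a library.

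Levels within a library were compared for 10 pairs of related genes, a comparison of levels rather than of spread. In 8 of the 10 pairs the same partner was the higher in 4 of 4 libraries. The log2 ratios were 3.45 ± 0.21 (SD, n = 4) for Hsp90ab1 over Hsp90aa1, 3.95 ± 0.44 for Hspa8 over Hspa1a, 4.11 ± 0.22 for Hspa4 over Hspa4l and 4.52 ± 0.16 for Hsf1 over Hsf2. They were 3.09 ± 0.14 for Ahsa1 over Ahsa2, 2.05 ± 0.22 for Fkbp4 over Fkbp5, 3.40 ± 0.34 for Bag1 over Bag3 and 1.06 ± 0.31 for Stip1 over St13. For each of the 8, the two-sided exact sign-flip permutation test gave p = 0.13 after rounding, the smallest that 4 libraries allow, and an adjusted p of 0.156 over the 10 pairs. None can pass 0.05 in this design. Hspa4 over Hsph1, at 1.24 ± 1.25, had an exact sign-flip permutation p of 0.250 (adjusted p = 0.278).

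**Figure D4:**
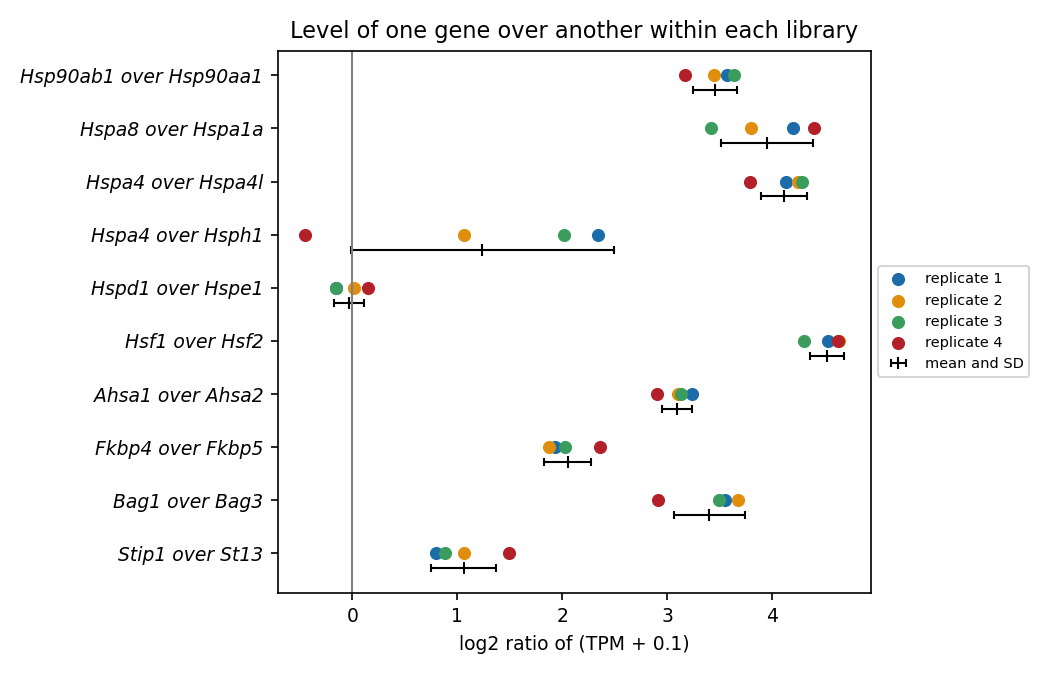
Log2 ratio of TPM (pseudocount 0.1) of the first gene over the second in each library, 1 point per library, with the mean and SD as a black bar below, for 10 pairs. In 8 pairs every point lies right of 0, the 4 points of Hspd1 over Hspe1 lie around 0, and replicate 4 lies at -0.45 for Hspa4 over Hsph1.

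The sequence runs shown above were then set beside the spread. All 4 genes with a run free of mismatches had a ratio of 1.5 or more, at 7.50 for Hsph1, 2.33 for Chordc1, 1.87 for Hspd1 and 1.52 for Hspe1. Of the other 25 genes with a window and past the filter, 12 did. With 1 mismatch allowed, 10 of 11 genes with a run had such a ratio, the exception being Cdc37, against 6 of 18 without one. The 10 did not all share a direction, since Hspa1a and Hspb6 were highest in replicate 3 and Hspb6 was lowest in replicate 4. Stip1, with a ratio of 3.20, and Ahsa2 and Cacybp had no run in the window even with 1 mismatch, and 4 of the variable genes, Hsp90aa1, Hsp90ab1, Hspa8 and St13, had no window. Of all genes tested, with or without a run, 19.1% had a ratio of 1.5 or more. The share among all genes that hold a run was not computed. Because the spread chose the genes and neighbours share sequence, these counts are a description with no test, and no link between run and spread is read from them.

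Other chaperone systems were read from 9 lists of 137 genes outside the 37. Of the 27 J-domain genes, whose products hand clients to HSP70, 4 had a ratio of 1.5 or more. Of all genes tested, 19.1% had such a ratio and 23.3% were highest in replicate 4, shares that also apply to the lists below. Replicate 4 was the highest library for 10 of the 27 and the lowest for 8, among them Dnajc10 at 70.3, 60.5, 63.1 and 47.3 TPM. Dnaja1 was at 41.9, 69.0, 49.6 and 119 TPM and Dnajb1 at 122, 190, 166 and 305 TPM, both in the order 1, 3, 2, 4. These 2 were the J-domain genes called by the dispersion test. Dnaja4 was at 15.6, 13.2, 18.5 and 28.8 TPM.

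The TRiC chaperonin and prefoldin, which fold actin and tubulin, differed less. Of their 14 genes 8 were highest in replicate 4 and 1 had a ratio of 1.5 or more, Cct3 at 90.9, 109, 94.1 and 138 TPM. Of the 23 other HSP90 and HSP70 cochaperones past the filter, 0 had a ratio of 1.5 or more, and the median ratio was 1.11. Replicate 4 was the highest library for 6 of these 23 genes and the lowest for 9. Nudc, a dynein-linked HSP90 partner, was at 112, 127, 121 and 155 TPM, also in the order 1, 3, 2, 4. Its relative Nudcd2 was at 40.7, 39.5, 45.8 and 37.7 TPM, lowest in replicate 4.

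Organelle stress genes were steady. Of 22 endoplasmic reticulum chaperone and unfolded protein response genes, 0 had a ratio of 1.5 or more, although Hsp90b1 (GRP94) was at 251, 262, 246 and 346 TPM. Of 10 mitochondrial protein quality control genes, 0 did. Among other heat-inducible genes, Dedd2 was at 65.5, 71.1, 63.9 and 99.6 TPM and Zfand2a at 29.8, 28.2, 26.2 and 38.1 TPM. The inducible collagen chaperone gene Serpinh1 was not past the filter. Of 16 other HSP70, small HSP and factor genes, 6 passed the filter. Of these 6, 3 had a ratio of 1.5 or more, but only 1 of the 6 was highest in replicate 4. Hspa2 and Hsf4, with ratios of 2.45 and 2.33 at mean levels of 1.01 and 2.24 TPM, were highest in replicate 2. Hspa12a, with a ratio of 1.56, was highest in replicate 3.

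Immediate early genes and cold-inducible genes were read as 2 further lists. Of 13 immediate early genes past the filter, 5 had a ratio of 1.5 or more, 3 were highest in replicate 4 (Egr1, Klf6 and Socs3) and 7 in replicate 3. Fos was at 90.3, 96.0, 143 and 64.9 TPM and Jun at 104, 132, 180 and 115 TPM, both highest in replicate 3. Cirbp and Rbm3, RNA-binding proteins induced by mild cold and lowered by heat, had the reverse order of the HSP90 genes. Cirbp was at 204, 137, 185 and 95.0 TPM and Rbm3 at 181, 154, 178 and 135 TPM in replicates 1 to 4. The reverse order was shown by 10.5% of all genes tested. Whether temperature or handling differed between the samples is not given, and their part in the spread was not tested.

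**Figure D5:**
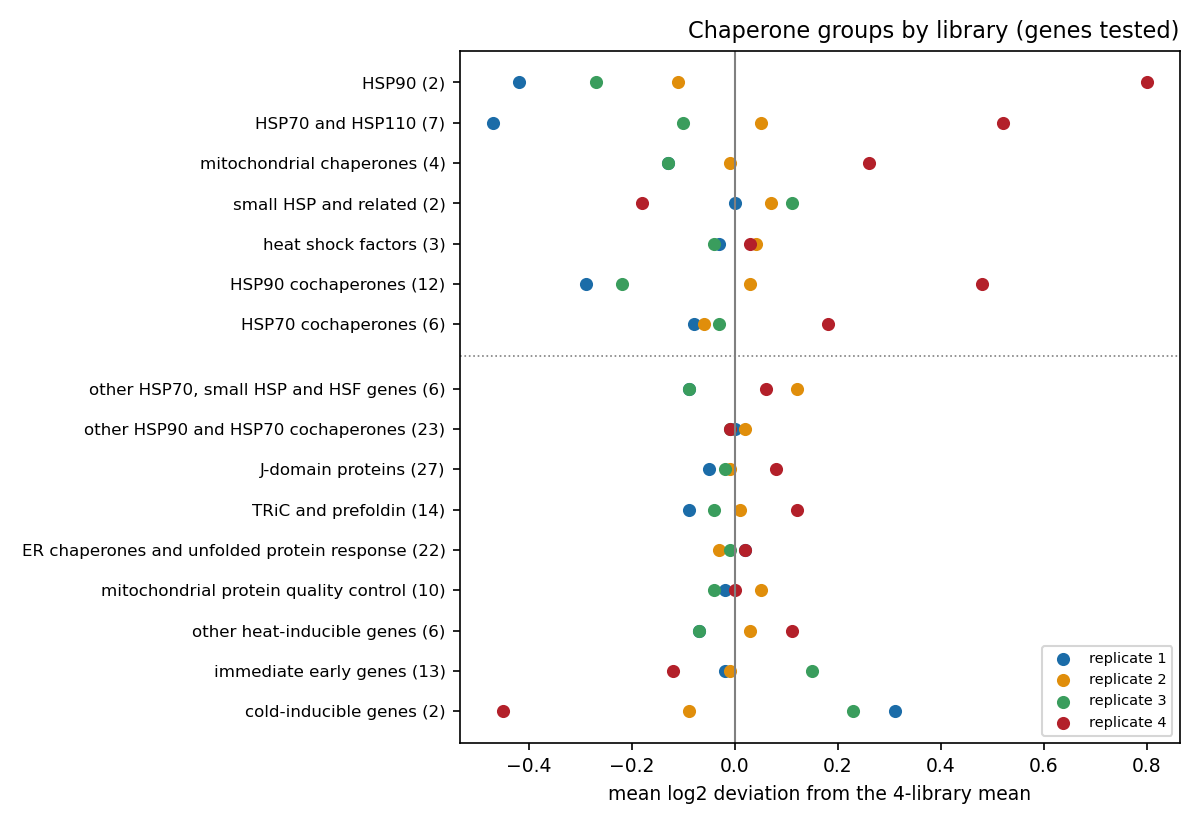
Mean deviation of each library from the 4-library mean (log2(TPM + 1) scale) for the chaperone and cochaperone groups (above the dotted line) and for 9 other lists (below it), with the number of genes tested in brackets. Replicate 4 lies at 0.80 for HSP90 and 0.48 for the HSP90 cochaperones, at 0.03 for the heat shock factors, and at -0.45 for the cold-inducible pair.

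Likeness to the mean profile of the 36 genes was measured as the root mean square distance of the centred log2(TPM + 1) values over 4 libraries. The 10 nearest genes outside the list with at least 5 CPM were Snx3, Hipk2, Elovl5, Cct3, Pja1, Daglb, Filip1l, Dnajb4, Med21 and Asf1b, at distances of 0.0135 to 0.0422. Snx3, a sorting nexin, was at 190, 221, 205 and 287 TPM. Elovl5, a fatty acid elongase, was at 147, 169, 156 and 223 TPM. Of the 10, Cct3 and Dnajb4 belong to chaperone families. With 4 libraries, many genes come near any profile, and no shared control is read from this.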

How the data were processed

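Each library has a deposited table of raw counts. Per the file headers, the authors ran featureCounts 1.4.6-p4 against the GENCODE M13 exons of mm10, on read pairs with both mates aligned, reading the reverse strand. The header names no setting that keeps fragments shared between copies or genes, so these were left out. No source used here gives the aligner's version. The gene length column of the deposited tables holds exon bases (other columns were positions).

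Gene IDs were matched to symbols in GENCODE M21, and all 37 members matched. TPM was computed from counts and exon length. Deviations used log2(TPM + 1). filterByExpr kept 12464 genes. edgeR 4.0.16 in R 4.3.3 gave a quasi-likelihood fit (TMM, intercept only, robust). An F test written on that fit, not supplied by the package, compared each gene's quasi-dispersion with the trend, one-sided. The largest prior degrees of freedom were used for every gene. The test had Benjamini-Hochberg adjustment at 0.05 and was tested on simulated data. DESeq2 1.42.0 gave an alternative. Pairs used an exact sign-flip permutation test with pseudocount 0.1. Words of 100 bases came from GENCODE M21 transcripts, compared on both strands with genes at other loci. Figures and other steps used Python 3.11.15.

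The 37 members, the lists and the rule for other named genes (the 10 nearest profiles, and up to 3 per list by spread) were chosen with earlier results of these data known. No library pair agreed within sampling noise (chi-square per degree of freedom 9.87 to 31.4). Alternatives covered scaling, pseudocounts, filters, and leaving out each library.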

Additional observations from a re-analysis of the deposited data

Results flagged for a closer look

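Among 85 sets of 4 values screened, 3 had a library that lay far from the other 3 by Dixon's 95% criterion for 4 samples, and chance flags about 1 in 20. Hspb11 stood at 19.2 TPM in replicate 1 against 16.4 to 16.8 in the others. Bag1 stood at 159 TPM in replicate 3 against 143 to 145. Hsp90b1, the endoplasmic reticulum HSP90, stood at 346 TPM in replicate 4 against 246 to 262.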

How the results depend on the processing

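The mean deviations in each library, the members highest in replicate 4 and lowest in replicate 1, and the members at 1 TPM in every library stayed close to their reported values under every scaling, pseudocount and filter tried, and without Hsph1, an alternative chosen after seeing the data. The 20 members with a ratio of 1.5 or more became 5 without replicate 4, the lowest of a leave-one-out range whose top was 20, and 21 when members below the filter were counted. Of single-gene values under other settings, 136 stayed within 1 SD and 8 moved further, all for Hspa14, Hsf2, Hsbp1 or Stub1. With a library left out, 114 stayed within 1 SD and 30 moved further, many without replicate 4.

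Calls of excess variable genes depended on the setting. Over all genes (24) and members (11) they were 349 and 18 with no filter, 10 and 3 among genes averaging at least 5 CPM, 6 and 3 for nuclear protein-coding genes, 5 and 2 with a fit that was not robust, and 108 and 17 as DESeq2 dispersion outliers. Leaving out a library gave 7 to 86 over all genes and 3 to 8 members. The cause was not tested.

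Hspd1 over Hspe1 reversed to 0.81 without length correction and to 0.01 without replicate 1 or replicate 3, in a leave-one-out range of -0.09 to 0.01. Without length correction the other pairs kept their sign, but their log2 ratios changed. They fell to 3.06 for Hsp90ab1 over Hsp90aa1, 3.03 for Hspa4 over Hspa4l, 2.28 for Hsf1 over Hsf2 and 2.48 for Bag1 over Bag3. Ahsa1 over Ahsa2 fell to 1.34, Fkbp4 over Fkbp5 to 0.86, Hspa4 over Hsph1 to 0.85 and Stip1 over St13 to 0.39. Hspa8 over Hspa1a rose to 4.49. The 4 members with a promoter run became 12 with 2 units (17.0% of all genes) and 12 with 1 mismatch allowed (8.15%), since a looser run is easier to match. No paired analysis was possible because the series has 1 group. Depth limits Hspb1 and Bag2, which had 9 and 149 counts in all.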
